A study of Homo sapiens with 4 samples.

Results

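The genes for the factors that start and extend protein chains on the ribosome were followed through depletion of SNRNP40 in breast cancer cells. They were chosen by symbol: every gene whose symbol begins with EIF1 to EIF6, EEF1 or EEF2, leaving out the EIF2AK kinases and EIF4A3, a subunit of the exon junction complex. The rule found 65 genes with 126 listed transcripts, of 23217 gene symbols and 44578 transcripts in all. The cells were LV-M100, a clonal line of low cell-to-cell variability grown out of a single cell of MDA-MB-231, an established human breast cancer line, so they represent 1 clone. There were 4 libraries, all of LV-M100 cells transfected by lipofection and harvested 48 h later. The siControl libraries carried NC1 or the BLOCK-iT Fluorescent Oligo, and the siSNRNP40 libraries carried siRNA #1 or #2. SNRNP40 belongs to the U5 particle of the spliceosome, the machine that removes introns. The comparison asked how transcript levels respond when this protein is depleted.

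The deposited values are FPKM, fragment counts corrected for transcript length and library size, so that levels can be compared between genes. Each transcript has 1 pooled value of the 2 siControl libraries and 1 pooled value of the 2 siSNRNP40 libraries. There are therefore no replicate values, the spread between replicates is unknown, and no difference given here was tested. Transcript values were summed to a level per gene, and changes are log2 fold changes of siSNRNP40 over siControl. Because FPKM is relative to library size, a shift of all genes together would not show, and a level kept means kept relative to the other genes. In bulk RNA of this kind, fewer cells with a transcript and less of it per cell cannot be told apart.

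Protein synthesis begins when eIF2, loaded with the initiator tRNA and GTP, joins the small ribosomal subunit together with eIF1, eIF1A, eIF3 and eIF5. The eIF4 proteins bind the cap of the mRNA, unwind its leader and bring the loaded subunit to it, which then scans to a start codon. eIF5B joins the large subunit, eIF2B reloads eIF2 with GTP, and eEF1 and eEF2 then add amino acids and move the ribosome along. Many mRNAs of this machinery begin with a C followed by a run of pyrimidines, the terminal oligopyrimidine tract, through which their translation follows growth signals.

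Both SNRNP40 siRNAs are shown because every comparison rests on them, as the RNA strand given in the labels. The target of #1 lies in exon 5 of the 10 exons of the canonical SNRNP40 transcript, on the minus strand at chr1:31754224-31754241 of GRCh37. The target of #2 lies in exon 2, on the same strand at chr1:31766067-31766084.
siSNRNP40 #1: ggaauagacaaugauauc
siSNRNP40 #2: ggauuugaccgacugaua

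The promoter windows used, taken from RefSeq on GRCh38.p14, covered 52 of the 65 genes. The 30 bases around the annotated start were matched by sequence to GRCh37, where each of those shown had 1 match. A pyrimidine start was defined as C at the annotated start followed by 4 bases that are each C or T. The windows below show 5 members with such a start, chosen to cover elongation, eIF2 and the eIF4 proteins, followed by EIF1AX and EEF1E1, which lack it. Capitals mark the bases from the annotated start onward. The positions are chr6:74230741-74230770 (minus) for EEF1A1, chr19:3985447-3985476 (minus) for EEF2, chrX:24073058-24073087 (plus) for EIF2S3, chr12:53400225-53400254 (plus) for EIF4B, chr3:186501351-186501380 (plus) for EIF4A2, chrX:20159942-20159971 (minus) for EIF1AX and chr6:8102767-8102796 (minus) for EEF1E1.
EEF1A1: gtcgccgtgaacgttCTTTTTCGCAACGGG
EEF2: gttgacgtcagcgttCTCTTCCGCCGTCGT
EIF2S3: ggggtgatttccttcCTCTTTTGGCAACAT
EIF4B: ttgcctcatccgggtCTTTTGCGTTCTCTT
EIF4A2: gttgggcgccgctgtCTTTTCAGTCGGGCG
EIF1AX: gcaaagagtcgcggcGCCATTTGCTGCCGC
EEF1E1: tgttctgcaggtctcGCGTCTGCCAGGAGC

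The level of SNRNP40 itself was 40.4 FPKM in siControl and 6.12 FPKM in siSNRNP40, a difference of -84.9%. The mesenchymal genes that mark MDA-MB-231 were all present, with siControl levels of 750 FPKM for VIM, 138 for MSN, 125 for AXL and 116 for CD44. The hormone receptor genes ESR1 and PGR were near 0, at 0.0199 and 0.0117 FPKM, as was CDH1 (E-cadherin) at 0.098 FPKM. KRT8 (136 FPKM), EPCAM (10.6 FPKM) and ERBB2 (6.56 FPKM), markers of luminal cells, were detected in siControl. Total FPKM was 516056 in siControl and 517152 in siSNRNP40. The number of fragments behind each value is unknown.

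As a set, the translation factor genes kept close to their control levels after SNRNP40 depletion, and 1 gene, EIF1AX, was past a 2-fold change. Of the 65 genes, 56 had a mean of at least 1 FPKM and 9 did not. Among the 56, 29 were higher and 27 lower in siSNRNP40, with a median log2 fold change of 0.011. Over all 12334 genes at this level 6233 were higher and 6101 lower, with a median of 0.0034. EIF1AX was the only 1 of the 56 past a 2-fold change in either direction (1.79%), while 181 of the 12334 genes, 1.47%, were past it. The members' share was thus close to that of all genes. Counting lower levels alone, the share was 1 of 56 members and 0.657% of all genes.

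The size of change, whatever its direction, had a median of 0.11 on the log2 scale among the 56 members and of 0.17 among all genes. The central range, from the 10th to the 90th percentile, ran from -0.22 to 0.17 for members and from -0.35 to 0.36 for all genes. A change beyond 0.25 was seen in 9 of 56 members (16.1%), 3 higher and 6 lower, and in 33.7% of all genes. Members are well expressed, and well expressed genes changed less in general. At a mean of at least 10 FPKM the median size was 0.10 for 49 members and 0.14 for 6394 genes, so the members' median was also the lower of the pair there. The sets were not matched in level above 10 FPKM, and whether level accounts for the difference was not tested.

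**Figure D1:**
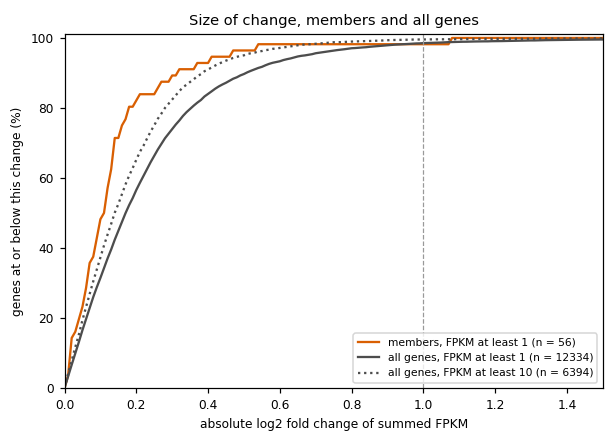
Percentage of genes (vertical axis) whose absolute log2 fold change of summed FPKM was at or below the value on the horizontal axis, for the 56 members (orange), all 12334 genes (solid grey) and the 6394 genes with a mean of at least 10 FPKM (dotted). The members' curve lies to the left of both others between changes of about 0.1 and 0.5, and its last step, beyond the dashed line at 2-fold, is EIF1AX.

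EIF1AX encodes eIF1A, which holds the small subunit in the state that scans for a start codon. Its level was 69.6 FPKM in siControl and 33.1 FPKM in siSNRNP40, a log2 fold change of -1.07 or a difference of -52.5%. Counted from the lowest log2 fold change, it was number 63 of the 12334 genes. Among the 6394 genes with a mean of at least 10 FPKM, 15 were lower by more than 2-fold. EIF1AX is listed as 1 transcript, on the minus strand of chromosome X of hg19 from 20142636 to 20159966, so its value does not depend on how fragments were divided among isoforms. The annotation names 2 pseudogenes of it, with which reads may be shared. Its Y-linked paralog, EIF1AY, did not reach 1 FPKM.

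The partners of eIF1A in start codon selection stood much closer to their controls. EIF1, which guards the fidelity of the start codon, was at 50.3 FPKM in siControl and 55.4 FPKM in siSNRNP40. Its paralog EIF1B was at 17.5 and 16.7 FPKM. EIF5, which stimulates GTP hydrolysis by eIF2, was at 48.6 and 51.0 FPKM. Their log2 fold changes lay between -0.06 and 0.14, and EIF1AX went from the highest of these 4 levels in siControl to the second lowest in siSNRNP40.

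All 5 genes that deliver initiator tRNA were lower in siSNRNP40, with a median log2 fold change of -0.12, and EIF2S3 was the furthest from its control. Of all 12334 genes, 6101 were lower, and whether these 5 genes share a direction beyond that was not tested. EIF2S3 encodes the gamma subunit of eIF2, which binds GTP and the tRNA. Its level was 157 FPKM in siControl and 114 FPKM in siSNRNP40 (log2 fold change -0.47). The alpha subunit EIF2S1, whose phosphorylation curbs initiation under stress, was at 68.2 and 64.3 FPKM, and the beta subunit EIF2S2 at 221 and 202 FPKM. EIF2A and EIF2D, factors of alternative initiation, were at 32.5 and 29.9 FPKM and at 22.0 and 21.3 FPKM. Apart from EIF2S3 these differences were at most 0.13 on the log2 scale, below the median size over all genes.

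EIF1AX and EIF2S3 both lie on chromosome X, the latter from 24073065 to 24096927 of hg19. The 414 genes of chromosome X with a mean of at least 1 FPKM had a median log2 fold change of -0.023. Of these, 4 (0.966%) were lower by more than 2-fold and 18.8% were below -0.25, beside 16.5% of all genes.

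The 5 subunits of eIF2B, the exchange factor that reloads eIF2, lay within a narrow band of levels in both conditions. In siControl they ranged from 18.4 FPKM (EIF2B4) to 33.0 FPKM (EIF2B1), and in siSNRNP40 from 19.7 FPKM (EIF2B4) to 36.2 FPKM (EIF2B1). In 4 of them the level was higher in siSNRNP40, by 0.10 to 0.13 on the log2 scale. EIF2B2 was the exception, at 27.8 FPKM in siControl and 24.9 FPKM in siSNRNP40 (-0.16).

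eIF3 is the largest initiation factor, a scaffold of many subunits on the small ribosomal subunit, and its 13 expressed genes differed in both directions. In siSNRNP40 6 were higher and 7 lower, with a median log2 fold change of -0.0039. EIF3A, the large core subunit on which the complex is built, was at 126 FPKM in siControl and 98.4 FPKM in siSNRNP40 (-0.36). EIF3G and EIF3I, subunits of the module that docks near the mRNA entry side, were higher, EIF3G at 130 and 159 FPKM (0.29) and EIF3I at 129 and 149 FPKM (0.21). EIF3B, the core subunit that these bind, was at 125 and 131 FPKM. EIF3A, EIF3B, EIF3G and EIF3I thus had siControl levels within a few FPKM of each other and were spread from 98.4 to 159 FPKM in siSNRNP40.

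The other eIF3 genes were within 0.10 of their control on the log2 scale. EIF3E had the highest level, 358 FPKM in siControl and 342 FPKM in siSNRNP40, followed by EIF3M at 166 and 164 FPKM. EIF3D, the subunit that can itself bind a cap, was at 111 and 109 FPKM, and EIF3H at 111 and 114 FPKM. EIF3K, EIF3L and EIF3F were lower in siSNRNP40 by at most 0.07, from siControl levels of 86.4, 64.8 and 57.0 FPKM. EIF3J, which is only loosely bound, had the lowest level, 16.3 and 17.4 FPKM. EIF3C, at 77.9 and 83.1 FPKM, is listed at a pair of loci on chromosome 16 that each hold almost the same values, and its near-identical copy EIF3CL is listed near 0, so how its reads were divided is uncertain.

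**Figure D2:**
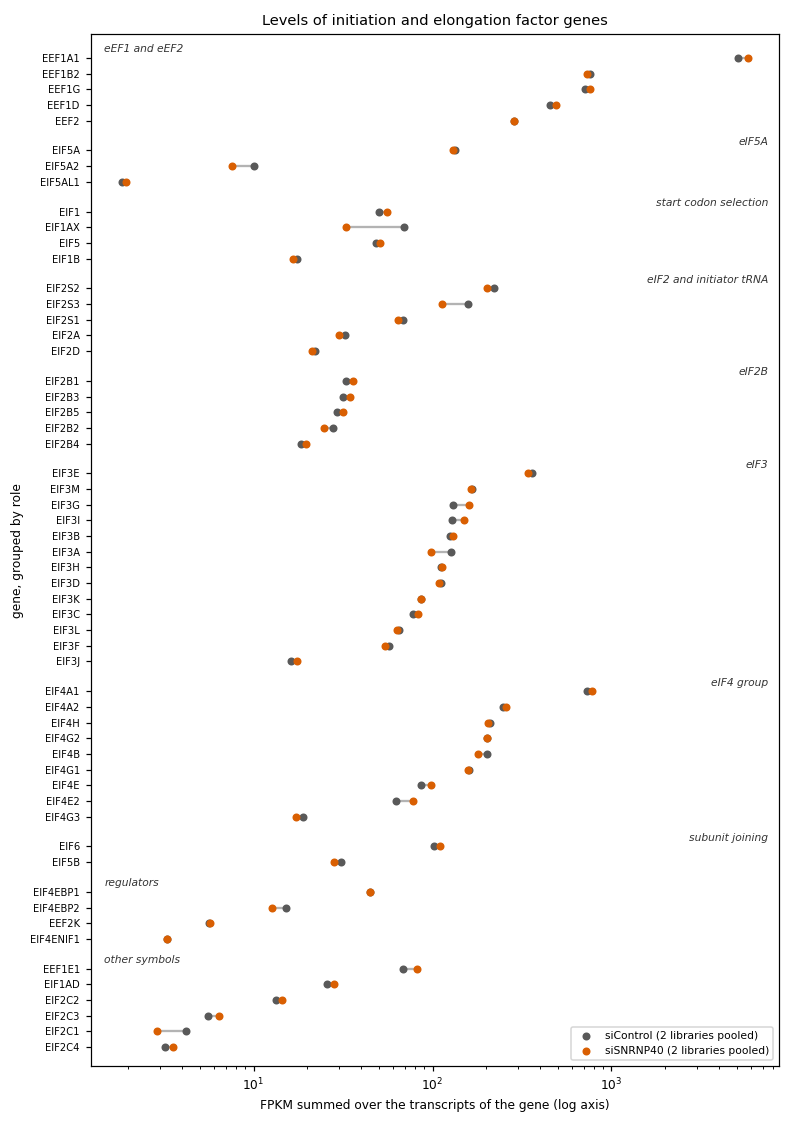
Level of each of the 56 expressed members on a log axis, as FPKM summed over the transcripts of the gene, in siControl (grey) and siSNRNP40 (orange), with genes grouped by role and ordered by level. Each point is 1 pooled value of 2 libraries without an error, the longest connecting line is that of EIF1AX (69.6 to 33.1 FPKM), and most pairs of points overlap.

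Of the 9 expressed eIF4 genes, which recognise and unwind the mRNA, 4 were higher and 5 lower in siSNRNP40, with a median log2 fold change of -0.011. Among these 9 genes EIF4E2 was the furthest from its control. EIF4E, the principal cap-binding protein, was at 86.4 FPKM in siControl and 97.7 FPKM in siSNRNP40 (0.18). EIF4E2, a cap-binding paralog known for repressing translation, was at 62.5 and 77.8 FPKM (0.32), the highest log2 fold change of any expressed member. The further paralog EIF4E3 was at 0.491 and 0.498 FPKM, below the filter.

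The eIF4G scaffolds stayed within 0.14 of their controls. EIF4G1, the main one, was at 160 FPKM in siControl and 158 FPKM in siSNRNP40, EIF4G2, which lacks the site for EIF4E, at 203 and 201 FPKM, and EIF4G3 at 19.0 and 17.2 FPKM. The helicase EIF4A1 was at 730 and 778 FPKM and its paralog EIF4A2 at 248 and 257 FPKM. EIF4B and EIF4H, which stimulate the helicase, were at 201 and 178 FPKM (-0.17) and at 209 and 203 FPKM (-0.04). In both conditions the order EIF4A1, EIF4A2, EIF4E, EIF4E2 held among the helicases and cap-binding proteins.

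The elongation factors include EEF1A1, the most abundant member, and 4 of their 5 expressed genes were slightly higher in siSNRNP40, with a median log2 fold change of 0.08. EEF1A1, which carries each aminoacyl-tRNA to the ribosome, was at 5117 FPKM in siControl and 5753 FPKM in siSNRNP40 (0.17), the 5th highest mean level of all 12334 genes. The annotation names 49 pseudogenes of EEF1A1, so part of its signal may be shared with them. Its muscle and neuron paralog EEF1A2 was at 0.783 and 0.206 FPKM, below the filter.

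The eEF1B complex, which exchanges the nucleotide on eEF1A, is made of the products of EEF1B2, EEF1D and EEF1G. EEF1B2 was at 755 FPKM in siControl and 727 FPKM in siSNRNP40, EEF1G at 714 and 757 FPKM, and EEF1D at 452 and 488 FPKM. The levels of EEF1B2 and EEF1G thus stood close together in both conditions and exchanged places. EEF2, which moves the ribosome by a codon, was at 284 and 287 FPKM.

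EIF5A carries hypusine and helps the ribosome through difficult stretches and at termination, and it was at 134 FPKM in siControl and 130 FPKM in siSNRNP40. EIF5A2, its paralog, was lower, at 10.1 and 7.60 FPKM (-0.40). EIF5AL1, an intronless copy of EIF5A, was listed at 1.84 and 1.95 FPKM and may share reads with it. At subunit joining, EIF5B was at 30.8 and 28.3 FPKM (-0.12), and EIF6, which keeps free large subunits apart from small ones, at 102 and 110 FPKM (0.12).

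Regulators that bind or modify these factors are also among the symbols. The EIF4E-binding repressor EIF4EBP1 was at 44.6 FPKM in siControl and 44.9 FPKM in siSNRNP40, while EIF4EBP2 was at 15.3 and 12.7 FPKM (-0.26). EIF4EBP3 was at 0.218 FPKM in siControl and listed at 0 in siSNRNP40. EEF2K, the kinase that silences eEF2, was at 5.63 and 5.69 FPKM, and EIF4ENIF1, which carries EIF4E into the nucleus, at 3.29 and 3.28 FPKM.

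Some symbols match the rule without naming a translation factor. EIF2C1 to EIF2C4 are older names of the Argonaute genes, which bind small RNAs. EIF2C1 (now AGO1) was at 4.18 FPKM in siControl and 2.88 FPKM in siSNRNP40 (-0.54), the second lowest log2 fold change of the expressed members. EIF2C2, EIF2C3 and EIF2C4 were higher, by 0.11, 0.20 and 0.15 on the log2 scale, from siControl levels of 13.3, 5.59 and 3.19 FPKM. EEF1E1 belongs to the complex of aminoacyl-tRNA synthetases and was at 68.8 and 81.8 FPKM (0.25). Restricting the set to the 45 expressed core factors gave 21 higher and 24 lower, with a median of -0.011.

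**Figure D3:**
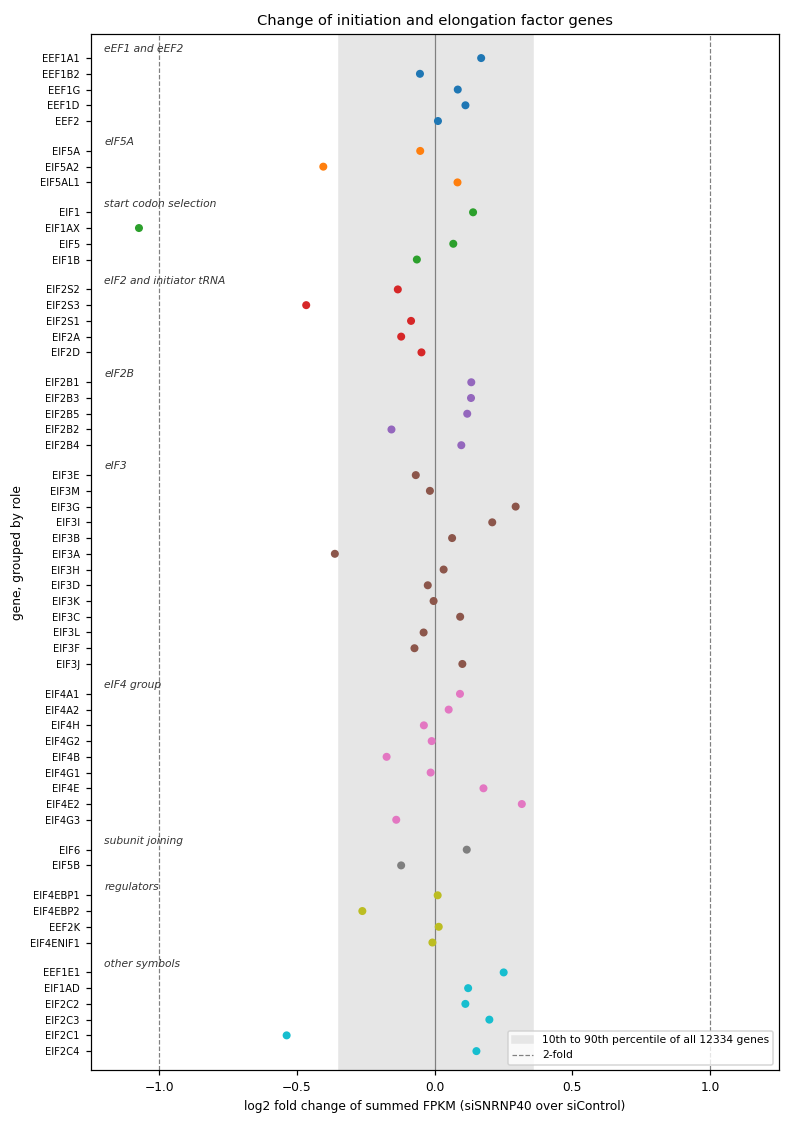
Log2 fold change of summed FPKM, siSNRNP40 over siControl, for the 56 expressed members, grouped and coloured by role in the same order as the plot of levels. The grey band spans the 10th to 90th percentile of all 12334 genes and the dashed lines mark 2-fold. EIF1AX lies beyond the lower line, EIF2C1, EIF2S3, EIF5A2 and EIF3A lie between it and the band, and the other points fall inside the band.

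Together the 65 genes held 12097 FPKM in siControl and 12766 FPKM in siSNRNP40, or 2.34% and 2.47% of all FPKM. EEF1A1 alone made up 42.3% and 45.1% of the members' sum. Without it the sum was 6980 and 7013 FPKM, a log2 ratio of 0.0068, so nearly all of the difference in the sum was that of EEF1A1.

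At least 1 annotated start was a pyrimidine start in 12 of the 52 members with a promoter window (23.1%) and in 5.14% of all 27305 genes with one. They were EEF1A1, EEF1B2, EEF2, EIF2A, EIF2D, EIF2S3, EIF3D, EIF3F, EIF3K, EIF3M, EIF4A2 and EIF4B. These 12 were all expressed, 3 higher and 9 lower in siSNRNP40, with a median log2 fold change of -0.04 and a range from -0.47 (EIF2S3) to 0.17 (EEF1A1). Of the 35 expressed members with a window and no pyrimidine start, 21 were higher and 14 lower. Their median was 0.08 and their range ran from -1.07 (EIF1AX) to 0.32 (EIF4E2). Over all 12334 genes with a mean of at least 1 FPKM, 50.5% were higher and the median size of change was 0.17. Changes over all genes with a pyrimidine start were not computed, and the difference between these groups of members was not tested. The expressed members EEF1D, EIF2C2, EIF2S2, EIF3A, EIF3E, EIF3G, EIF3H, EIF3L and EIF4EBP1 had no window and are in neither group. They include EEF1D, EIF2C2, EIF3E, EIF3H and EIF4EBP1, which are all of the members on chromosome 8. The sequence marks the annotated start, and the start used in these cells was not measured.

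Members with a longer canonical transcript were more often lower in siSNRNP40, though those with the longest, EIF2C3 (19660 bases) and EIF2C2 (14595 bases), were higher. The lengths are of annotated canonical transcripts, which may differ from those listed. Across the 56 expressed members Spearman's rho between the log2 fold change and the length of the canonical transcript was -0.37, and -0.35 without EIF1AX. Across 11467 genes with a length, 93.0% of those expressed, rho was -0.13. Of 11 members with transcripts under 1500 bases, 7 were higher in siSNRNP40 and the median was 0.08, beside 0.06 for all 1766 genes of that size. Of 17 members over 4000 bases, 5 were higher and the median was -0.09, beside -0.04 for 4432 genes. The share of all genes that were higher was not counted within these lengths. These points share their libraries and are not independent. With the number of exons rho was -0.10, and with the mean FPKM 0.04.

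**Figure D4:**
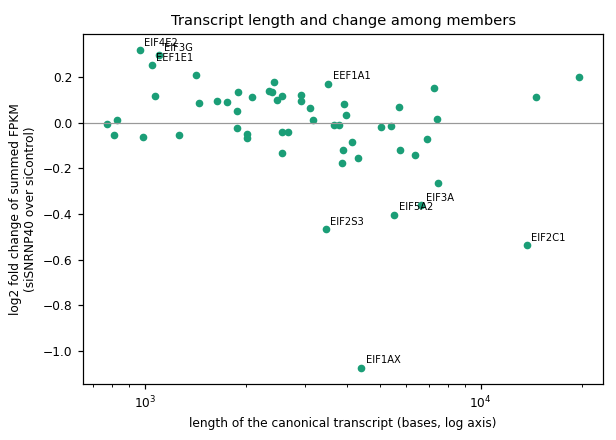
Log2 fold change of summed FPKM against the length of the canonical transcript on a log axis, for the 56 expressed members, 1 point a gene. The shortest members, such as EIF4E2, EEF1E1 and EIF3G, include the highest log2 fold changes, and EIF1AX, EIF2S3, EIF5A2, EIF3A and EIF2C1 make up the lowest points at medium and long lengths.

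Single transcripts differed more between the conditions than the genes they belong to. Of 91 member transcripts with a mean of at least 1 FPKM and a value above 0 in both conditions, 9 (9.89%) were past a 2-fold change, 4 higher and 5 lower, while 10.5% of all transcripts were. Of these 9, 8 came from genes with several transcripts. The values of such transcripts depend on how overlapping fragments were divided among them, and the fragments behind them are unknown. Several transcripts above 0 FPKM, however low, were listed for 21 of the expressed members. In these 21, a median of 6.17 percentage points of a gene's FPKM moved from some transcripts to others, against 8.48 points over 4945 such genes. The leading transcript differed between the conditions in 1 of 21 members, EIF1AD, and in 15.9% of all such genes.

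EEF1D, the nucleotide exchange subunit with 9 listed transcripts, showed this most clearly among the abundant factors. Its leading transcript TCONS_00040608 was at 257 FPKM in siControl and 295 FPKM in siSNRNP40, 57.0% and 60.5% of the gene. TCONS_00040609 was at 62.4 and 137 FPKM (1.14), and its share went from 13.8% to 28.2%. TCONS_00040610 held 85.8 FPKM, or 19.0% of the gene, in siControl and was listed at 0 in siSNRNP40. These opposite shifts, 19.5 points in all, left the sum within 0.11 of its control on the log2 scale. Of the other transcripts, TCONS_00040603 was at 32.9 and 37.7 FPKM, TCONS_00040604 at 9.22 and 14.7 FPKM, and TCONS_00040607 at 1.81 and 2.83 FPKM. TCONS_00040611 was at 1.74 and 0.0048 FPKM, and TCONS_00040605 and TCONS_00040606 were at 0.242 and 0.012 FPKM in siControl and listed at 0 in siSNRNP40.

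EIF1AD, which carries a domain like that of eIF1A, had the largest share moved, 40.7 points. TCONS_00008120 led in siControl at 10.4 FPKM and was at 3.99 FPKM in siSNRNP40, where TCONS_00008124 led at 10.8 FPKM, from 7.17 FPKM. TCONS_00008123 was at 6.23 and 3.01 FPKM, and TCONS_00008119 at 0.014 and 6.31 FPKM. The gene's sum was 25.8 and 28.1 FPKM.

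Besides EIF1AD and EEF1D, the largest shares moved were 32.1 points in EIF4ENIF1, 19.7 in EIF2C3 and 19.1 in EIF2C2, each with a mean level under that of EIF1AD. In EIF4ENIF1 TCONS_00026748 was at 2.84 and 1.77 FPKM and TCONS_00026746 at 0.457 and 1.5 FPKM. In EIF2C3 TCONS_00000532 was at 0.024 and 1.29 FPKM, and in EIF2C2 TCONS_00040567 at 0.055 and 2.82 FPKM. In each of these 3 genes a minor transcript took up the share that the leading transcript gave up.

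Transcripts of the cap complex, and of EEF1B2 and EIF2B4, also differed more than the sums of their genes. EIF4G1 had TCONS_00028057 at 14.8 FPKM in siControl and 0.0038 FPKM in siSNRNP40, and its leading transcript TCONS_00028058 at 114 and 128 FPKM. EIF4A1 had its leading transcript TCONS_00016060 at 586 and 541 FPKM and TCONS_00016059 at 144 and 237 FPKM, whose share went from 19.7% to 30.4%. EIF4E had TCONS_00030565 at 5.34 and 0.014 FPKM, and its leading transcript at 79.6 and 94.5 FPKM. In EEF1B2 TCONS_00022794 was at 431 and 471 FPKM and TCONS_00022796 at 281 and 200 FPKM, and in EIF2B4 TCONS_00023213 was at 3.22 FPKM and listed at 0.

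**Figure D5:**
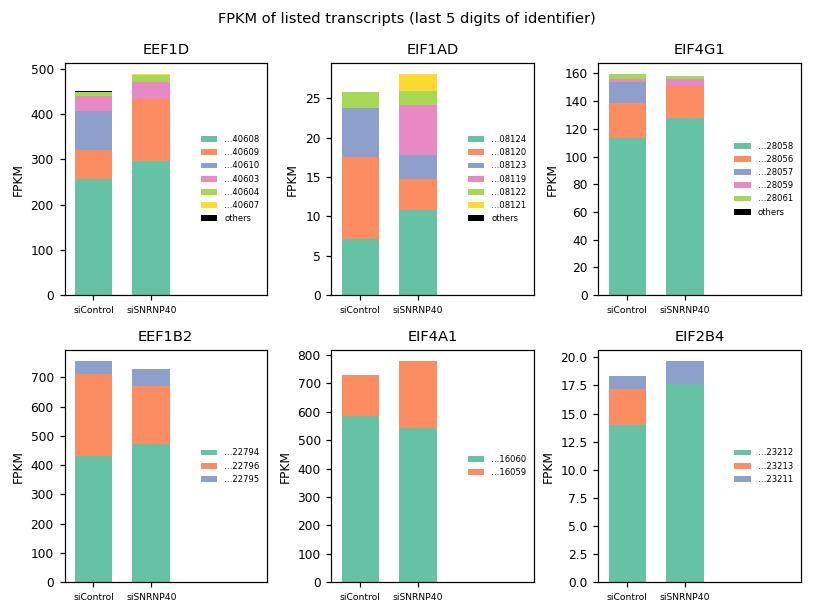
FPKM of the listed transcripts of 6 members in siControl and siSNRNP40, stacked so that the bar height is the gene's sum, with colours for transcripts of at least 1 FPKM on average and black for the rest. The heights of each pair of bars are close while the segments differ, as for EEF1D, where the blue segment of 85.8 FPKM in siControl is missing in siSNRNP40.

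Because of these shifts, 5 genes had a leading transcript whose log2 fold change had the opposite sign to that of the sum and lay at least 0.1 from it: EEF1B2 (0.13 for the transcript), EIF4G1 (0.17), EIF4A1 (-0.12), EIF2C2 (-0.20) and EIF2C3 (-0.12). Of the 9 members beyond 0.25 on the log2 scale, 8 have 1 listed transcript, and EEF1E1 has 2, with a log2 fold change of 0.52 for the leading transcript and 0.25 for the sum. Over all members, 8 transcripts were listed at 0 in siSNRNP40 alone, 4 in siControl alone and 6 in both. The siControl levels of the 8 ran from 0.0012 FPKM (EIF4ENIF1) to 85.8 FPKM (EEF1D). Of all 44578 transcripts, 12675 were at 0 in both conditions. Those at 0 in a single condition were not counted over all genes, so the member counts show no direction.

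A list of 45 other translation genes, among them release factors, poly(A)-binding proteins, eIF2 kinases and mitochondrial translation factors, gave a comparison outside the rule. Of these, 43 were listed and 42 expressed, 22 higher and 20 lower in siSNRNP40, with a median log2 fold change of 0.02 and a median size of 0.16. None of the 42 was past 2-fold, 9 were above 0.25 and 8 below -0.25. Of all 12334 genes, 1.47% were past 2-fold and 33.7% past 0.25 in either direction. The range of the 42 ran from -0.63 for BZW1, which mimics eIF5 (306 and 197 FPKM), to 0.41 for PPP1R15A, which directs removal of the stress phosphate from eIF2 (50.1 and 66.8 FPKM).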

How the data were processed

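After trimming with cutadapt 1.2.1, the authors mapped the reads to hg19 with TopHat2 2.0.8, assembled and merged transcripts with Cufflinks, and ran Cuffdiff 2.0.2. Tool versions are also given in the submitters' processing notes. RNA had been freed of ribosomal RNA with Ribo-Zero Gold, and libraries were made with ScriptSeq v2 and sequenced on a HiSeq instrument. The deposited values, in FPKM, were estimated per transcript by Cuffdiff and pooled by the authors over the 2 libraries of a condition. Depth is unknown. The table also holds the authors' own fold changes, test statistics, p-values and q-values, which were not used.

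FPKM was summed per gene symbol, and log2 ratios were taken without a pseudocount for genes with a mean of at least 1 FPKM. With 1 pooled value per condition no test was made, and a change was called past 2-fold when its absolute log2 value exceeded 1. The share moved within a gene is the sum of absolute differences in transcript shares divided by 2. Named were the subunits of the core factors, the 5 largest rises and falls, members past 2-fold, EEF1D and the 5 largest shares moved, member transcripts past 2-fold with a mean of at least 5 FPKM, paralog pairs and SNRNP40. The transcript shifts of EIF4E, EIF4A1, EEF1B2 and EIF2B4 and the comparison with length were chosen after their values were seen. The value of a Y-linked member is not reported. The members and lists were chosen with earlier results of these data known. Exons, lengths and pseudogenes were taken from GENCODE release 44 as lifted to GRCh37, in which all 65 symbols were matched, 5 by an older symbol. Gene positions on hg19 are the loci deposited with the transcripts. Positions of promoter windows and siRNA targets were found by sequence match to GRCh37. The calling of fold changes and of leading transcripts was tested on simulated data without noise, which checks the arithmetic alone. Calculations used Python 3.11.15, numpy 2.4.6 and pandas 2.3.3. Alternatives changed the filter, the pseudocount, the scaling, the summing and the set of members. A value counted as moved at 0.1 on the log2 scale, 5 percentage points or 1.5 times a count.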

Additional observations from a re-analysis of the deposited data

How the results depend on the processing

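EIF1AX was the only member past 2-fold in every setting that kept the filter or raised it. Without a filter 6 members were past 2-fold, all lower, the other 5 having a mean under 1 FPKM. The number of member transcripts past 2-fold, 9, was 20 without a filter and 4 at a mean of at least 5 FPKM, where fewer transcripts enter. The median log2 fold change of the members lay between -0.011 (core factors) and 0.036 (upper-quartile scaling), so its sign depended on the setting. The median size lay between 0.097 and 0.12. The scalings removed a difference between the conditions of 0.0034 (median) or -0.025 (upper quartile) on the log2 scale. Over 224 values of single genes, 214 moved by less than 0.1, and 10 moved more, 9 of them when the most expressed transcript stood for the gene, among them EIF4ENIF1 (-0.68), EIF1AD (0.59), EEF1E1 (0.52) and EIF2B4 (0.33). With a pseudocount of 1 EIF2C1 was at -0.42. The setting of at least 10 FPKM was chosen after seeing the data. No paired analysis was possible because each condition is deposited as 1 pooled column without replicate numbers, and leaving out a replicate or fitting a replicate block was not run. An effect of a single siRNA or library cannot be told apart from that of SNRNP40 depletion.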
